A study of Mus musculus with 4 samples.

Results

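Regulatory T cells of the injured mouse lung were described in single-cell RNA sequencing (scRNA-seq) data from 2 wild-type (WT) and 2 Tubb3-/- mice. A Treg was any cell with at least 1 unique molecular identifier (UMI, a tag that counts 1 captured RNA molecule) of Foxp3, at least 1 of Cd3e or Cd3g, and 0 of Cd8a, Cd79a, C1qa, Cdh5, Pdgfra and Epcam. The members were thus selected on measured values, so these genes, called gate genes below, were left out of every test. Of 30860 cells kept, from 32121 deposited, 310 met this rule, with 78 and 20 from the WT mice and 141 and 71 from the Tubb3-/- mice. Values for single mice follow this order throughout, WT replicate 1, WT replicate 2, Tubb3-/- replicate 1 and Tubb3-/- replicate 2.

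All 4 mice, aged 8 to 11 weeks, had received bleomycin (0.8 U/kg) into the trachea 14 days before. The Tubb3-/- mice carried Cre knocked in at the start codon of both Tubb3 alleles in all their cells, the WT mice were littermates, and there was no uninjured group. Tubb3 encodes β-III tubulin, a tubulin known mainly from neurons, and the study asked what its loss does in fibrotic lung. Each mouse gave whole cells, depleted of TER-119+ red cells, and mural cell-enriched cells, from which CD31+, CD45+, EpCAM+ and TER-119+ cells had been removed. Tagged cells of the 4 mice were pooled by type before sorting and capture, which gave 2 pools. Their counts were separated by tag, and the part of a pool from 1 mouse is called a library below. The second depletion removes leukocytes, and 306 of the 310 Tregs came from the whole-cell libraries (75, 19, 141 and 71 cells) and 4 from the mural cell-enriched ones.

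Foxp3, on the X chromosome (7573644 to 7595245, plus strand, mm10), encodes the transcription factor that defines Tregs, and its loss in mice and humans leads to fatal autoimmunity. Tregs hold other lymphocytes in check through the inhibitory receptor CTLA-4, the high-affinity interleukin-2 receptor chain CD25 (Il2ra) and soluble mediators such as interleukin-10. In lung, fat, skin and muscle, a part of the Tregs carries the interleukin-33 receptor ST2 (Il1rl1), the transcription factor GATA-3 and the receptor KLRG1, and makes amphiregulin (Areg), a growth factor of tissue repair. Resting Tregs that recirculate through lymphoid organs carry instead Ccr7, Tcf7 and Lef1.

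The 8 libraries held 41462258 to 95036340 gene UMIs each. As a check of the labels, Tubb3 stood at 1.93 and 0.87 CPM (UMIs of a gene scaled to the same library total) in whole-cell libraries of WT mice and at 0.26 and 0.32 CPM in those of Tubb3-/- mice, and it was lower in their mural cell-enriched libraries too. Among the Tregs it had 0 of 2237357 UMIs, which allows at most 1.34 CPM, and Cre had 0 as well. Replicate 1 of either genotype carried UMIs of Y-linked Ddx3y in its Tregs (115 CPM in WT, 100.5 in Tubb3-/-) and replicate 2 those of Xist (659 and 1254), so that the replicate number and these sex-linked transcripts coincided and each genotype held 1 mouse of either kind.

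The Tregs were well covered, with median depths of 6015, 5874, 6116 and 6032 UMIs per cell, and 192 of them (61.9%) also had a Cd4 UMI. At least 1% of the UMIs of 6 Tregs were of marker genes of other cell types, and 29 more lay between 0.5% and 1%. Both barcodes of this kind from WT replicate 2 were large, with 37633 and 22688 of the 174382 Treg UMIs of that mouse. The first held 6881 UMIs of the alveolar gene Sftpc and the second 1497 of the macrophage gene Lyz2. Summed over 5 epithelial genes, the Tregs stood at 1351, 45297, 1484 and 1399 CPM, and at 1379, 1245, 1449 and 1449 CPM without the 6 cells. For 7 macrophage and monocyte genes the sums were 1925, 16699, 603 and 2708 CPM, and 764, 736, 600 and 615 without them. Il5 of type 2 innate lymphoid cells, Rgs5 of pericytes and Ppbp of platelets were at 0 in all Tregs, but other genes of their lists were found. The 5 mural genes summed to 251, 63.1, 82.4 and 140 CPM, and to 262, 70.1, 81.7 and 147 without the 6 cells. For 4 genes of natural killer and type 2 innate lymphoid cells the sums were 33.2, 0, 37.2 and 14.2 CPM. The main comparisons were repeated without the 6 cells and without the 14 conventional CD4 T cells of the same kind, called mixed cells below.

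Marker genes of Tregs that the rule had not used were present in most of its cells. In the whole-cell libraries, 97.1% of 306 Tregs had a Ctla4 UMI, 95.4% one of Ikzf2, which encodes the Treg transcription factor Helios, and 75.2% one of Il2ra. In 345 conventional CD4 T cells (Cd4 at least 1, Foxp3 0, the other gate genes as in Tregs), at a median of 6251 UMIs against 6075 in Tregs, these shares were 44.3%, 29.3% and 12.2%. Among 140 CD8 T cells, which were deeper at 8388 UMIs, Ctla4 was found in 19.3% and Il2ra in 4.3%. Fibroblasts, endothelial cells, epithelial cells, macrophages and B cells had a Foxp3 UMI in 0.5% to 0.7% of cells, a Ctla4 UMI in 4.5% to 9.0% and an Il2ra UMI in 1.5% to 8.9%, at median depths of 4985 to 20351 UMIs.

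The tissue Treg markers were frequent too. Il1rl1 was found in 78.8% of the Tregs, Gata3 in 82.0%, Klrg1 in 62.7% and Areg in 54.6%, against 10.4%, 38.6%, 7.5% and 12.8% of conventional CD4 T cells. Il10 was found in 15.7% of Tregs and 3.2% of conventional cells. Areg is not particular to T cells in lung, and 33.0% of epithelial cells had a UMI of it.

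Cells near the threshold of 1 Foxp3 UMI resembled those well past it for Ctla4 and Ikzf2, and less so for Il2ra and the tissue markers. The 87 Tregs with exactly 1 Foxp3 UMI made up 28.1% of the population, 65 had 2, and the highest value was 15. Among whole-cell Tregs with 1 UMI, at a median depth of 5101, Ctla4 was found in 93.0%, Il2ra in 62.8%, Il1rl1 in 60.5% and Klrg1 in 38.4%. With 3 or more UMIs, at a depth of 6664, the shares were 98.7%, 84.0%, 88.5% and 77.6%. Just outside the rule, 902 T cells with neither Foxp3 nor Cd8a had Ctla4 in 33.1% and Il2ra in 21.4%.

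**Figure D1:**
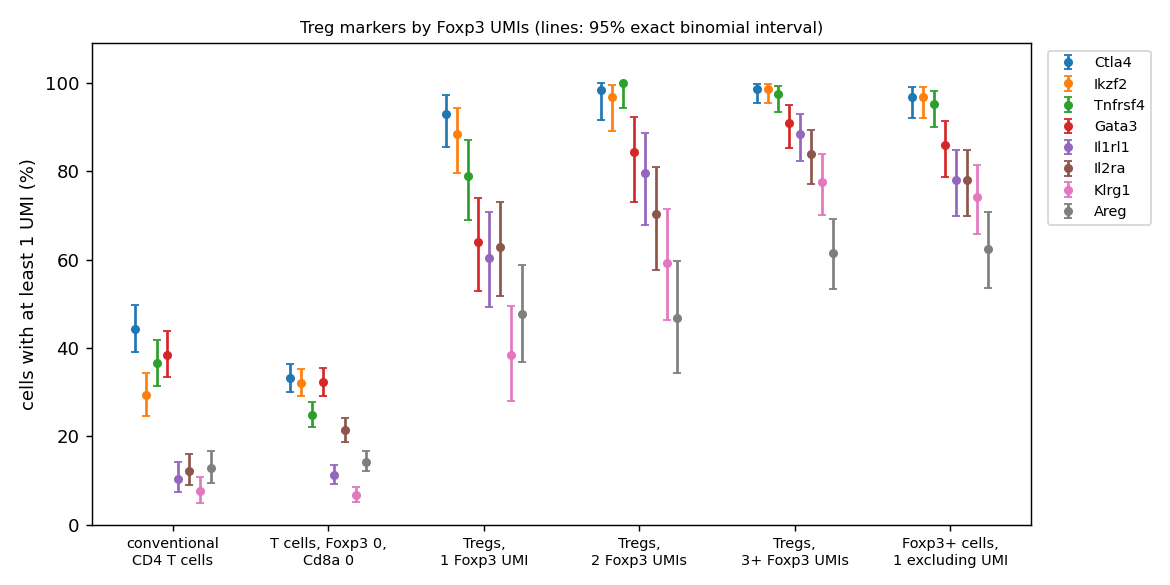
Share of whole-cell library cells (y axis, %) with at least 1 UMI of 8 Treg genes, for conventional CD4 T cells, T cells without Foxp3 and Cd8a, Tregs with 1, 2 and 3 or more Foxp3 UMIs, and Foxp3+ T cells with 1 UMI of an excluding gene. Points are shares and lines 95% exact binomial intervals, which cover counting error only. Ctla4 lies between 93.0% and 98.7% in all 3 Treg classes and at 44.3% in conventional cells, while Klrg1 goes from 38.4% to 77.6% along the Foxp3 UMIs.

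The excluding genes kept out cells with Treg features. Of 683 kept cells with a Foxp3 UMI, 126 had no CD3 UMI and 247 had CD3 and at least 1 excluding gene, most often Epcam (136 cells). Allowing 1 UMI of Cd79a, C1qa, Cdh5, Pdgfra or Epcam would have added 131 cells, 33, 12, 61 and 25 by mouse. Among the 128 of these in whole-cell libraries, Ctla4 was found in 96.9%, Ikzf2 in 96.9%, Il2ra in 78.1%, Il1rl1 in 78.1% and Klrg1 in 74.2%. These shares lie near those of the Tregs inside the rule.

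The first comparison was of Treg abundance between the genotypes. Of all whole-cell library cells, Tregs made up 2.20% (95% exact binomial interval 1.74 to 2.75) and 0.61% (0.37 to 0.95) in the WT mice and 3.37% (2.85 to 3.97) and 2.05% (1.61 to 2.58) in the Tubb3-/- mice. The genotypes overlapped, since WT replicate 1 lay above Tubb3-/- replicate 2. These 2 mice differed in their sex-linked transcripts. Between mice of the same number the Tubb3-/- share was higher, at 3.37% against 2.20% and 2.05% against 0.61%, and 2 such pairs are too few for a test. The means were 1.41 ± 1.13% and 2.71 ± 0.93% (SD, n = 2 mice each). With the replicate number ignored, the difference was 1.31 percentage points (exact two-sided permutation test, p = 0.667). The smallest p that this test can give for 2 mice against 2 is 0.33.

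With T cells as the denominator the genotypes separated, by a small gap. Tregs were 20.2% of 371, 7.54% of 252, 32.5% of 434 and 22.8% of 312 T cells, where a T cell is a CD3+ cell without the 5 excluding genes. Cells that were neither Tregs, conventional CD4 nor CD8 T cells made up 39.4%, 54.0%, 37.3% and 42.9% of this denominator. The 95% intervals of WT replicate 1 (16.2 to 24.7) and Tubb3-/- replicate 2 (18.2 to 27.8) overlapped. The mean was 13.9 ± 8.96% in WT and 27.6 ± 6.88% in Tubb3-/- mice, a difference of 13.7 percentage points (exact two-sided permutation test, p = 0.33, the smallest value that 2 mice against 2 can give). After each cell had been thinned at random to 2000 UMIs, the shares were 14.3%, 6.56%, 26.3% and 12.8%. The genotypes overlapped, and the difference was 9.12 percentage points (exact two-sided permutation test, p = 0.667). Between mice of the same number the Tubb3-/- share was higher before and after thinning.

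WT replicate 2 had the fewest Tregs by every denominator. There were 72.8, 26.0, 151.6 and 93.4 Tregs per 100 conventional CD4 T cells, while T cells as a whole made up a narrower 10.9%, 8.08%, 10.4% and 9.03% of cells. Without WT replicate 2, the difference in the share of all cells was 0.51 instead of 1.31 percentage points and that in the share of T cells 7.41 instead of 13.7. Without Tubb3-/- replicate 1 the differences were 0.65 and 8.88, without WT replicate 1 they were 2.11 and 20.1, and without Tubb3-/- replicate 2 the share of all cells differed by 1.97.

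**Figure D2:**
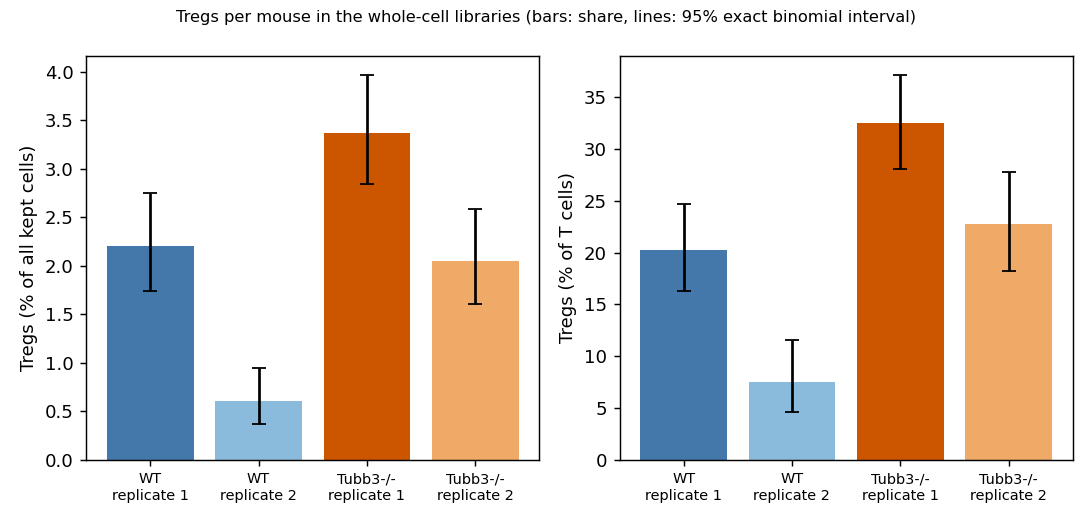
Tregs as a share of all kept cells (left, %) and of T cells (right, %) in the whole-cell library of each mouse, with 95% exact binomial intervals. WT replicate 2 is the lowest in both panels, at 0.61% and 7.54%, and WT replicate 1 (20.2% of T cells) lies just under Tubb3-/- replicate 2 (22.8%).

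The next comparison asked what set Tregs apart from the 349 conventional CD4 T cells (104, 74, 94 and 77) of the same mice. UMIs were summed per mouse and class and tested with edgeR, with the mouse as a term and Benjamini-Hochberg adjustment over all 7623 genes tested. A gene was called at an adjusted p under 0.05, and per-mouse values are CPM normalized by the trimmed mean of M-values. Of the genes tested, 7.46% were higher and 7.71% lower in Tregs (569 and 588 genes), and the median log2 difference of all genes was -0.05. The classes were set by Foxp3 and Cd4 UMIs of the same cells, so the differences describe cells with and without the Foxp3 transcript.

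The identity genes of Tregs were higher almost without exception, with 14 of 15 tested called higher, none lower, and a median log2 difference of 2.29. Il2ra stood at 514, 324, 644 and 475 CPM in Tregs against 48.0, 34.9, 101 and 42.5 in conventional cells (log2 difference 3.15 ± 0.17 SE, edgeR adjusted p = 3.97e-06). Ctla4 stood at 1963, 1193, 2225 and 1570 against 446, 165, 740 and 235 CPM (2.29 ± 0.18, adjusted p = 1.73e-05). The lowest Treg value lay above the highest conventional one for both genes. Ikzf2 was at 2288 to 2996 CPM in Tregs against 128 to 480 (3.39 ± 0.25), and the costimulatory receptor gene Tnfrsf9, encoding 4-1BB, at 689 to 1449.8 against 84.5 to 176 (3.11 ± 0.14).

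The genes by which Tregs activate latent TGF-β, Itgb8 of an integrin and Lrrc32 of the docking receptor GARP, differed by 3.02 ± 0.28 and 2.35 ± 0.36. Icos, a costimulatory receptor of activated T cells, was the one identity gene not called, at 866, 486, 734 and 587 CPM in Tregs and 594, 488, 756 and 464 in conventional cells (0.21 ± 0.12, adjusted p = 0.31). Nrp1, often used to mark Tregs of thymic origin, was at 86.9 to 103 CPM against 42.5 to 88.0 (0.72 ± 0.22, adjusted p = 0.047). That call was lost without WT replicate 1 or Tubb3-/- replicate 2 (0.60 to 0.61, adjusted p = 0.17 to 0.19).

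Of the suppressive mediators, 9 of 12 tested were higher and none lower, with a median of 1.36. The largest difference among the called genes was in Areg, at 454, 753, 787 and 568 CPM in Tregs and 43.8, 33.1, 161 and 118 in conventional cells (2.94 ± 0.29, adjusted p = 5.12e-05). Il10 was at 71.1, 46.3, 62.2 and 46.5 CPM against 21.2, 12.9, 5.97 and 18.5 (2.00 ± 0.32, adjusted p = 0.0014), and its 140 Treg UMIs lay in 48 cells. Ebi3, a subunit of interleukin-35, differed by 2.73 ± 0.50, Fgl2, a secreted inhibitor of dendritic cells, by 1.94 ± 0.21, and Nt5e, encoding CD73, which makes adenosine, by 1.41 ± 0.16.

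Tgfb1 differed less, at 145 to 187 against 79.1 to 129 CPM (0.76 ± 0.17), and its call was lost without WT replicate 1 or Tubb3-/- replicate 1 (adjusted p = 0.052 to 0.068). That of Cd274, encoding PD-L1 (0.72 ± 0.20), was lost without either Tubb3-/- mouse (adjusted p = 0.12 to 0.13). Gzmb, encoding granzyme B, was uneven among the mice, at 144, 0, 98.6 and 9.69 CPM in Tregs, and was not called (1.84 ± 0.60, adjusted p = 0.065). A single cell held 61 of the 87 Gzmb UMIs of WT replicate 1. Entpd1, encoding CD39 (0.77 ± 0.36, adjusted p = 0.20), and Penk (0.96 ± 0.36, adjusted p = 0.10) were not called either.

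The tissue and effector Treg list had 14 of 18 genes called higher and 1 lower (median 1.33). Klrg1 stood at 331, 237, 440 and 270 CPM in Tregs and at 36.7, 5.51, 43.3 and 18.5 in conventional cells (3.62 ± 0.24, adjusted p = 6.91e-06). Il1rl1 was at 646, 556, 1083 and 863 CPM against 56.5, 93.7, 68.6 and 66.6 (3.46 ± 0.21, adjusted p = 4.51e-06). Both were higher in Tregs of all 4 mice with no overlap. Gata3, a transcription factor shared with type 2 helper cells, differed by 1.58 ± 0.19, Pparg, a nuclear receptor known from fat Tregs, by 2.38 ± 0.30, Pdcd1, encoding PD-1, by 2.39 ± 0.20, and the chemokine receptor gene Ccr8 by 1.46 ± 0.22.

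Il18r1, a chain of the interleukin-18 receptor, was the member of this list that was lower in Tregs, at 200, 104, 199 and 147 CPM against 227, 224, 307 and 298 (-0.68 ± 0.17, adjusted p = 0.017). Without either Tubb3-/- mouse it was not called (-0.70 to -0.52, adjusted p = 0.051 to 0.15). Irf4 (0.59 ± 0.23), Prdm1, encoding Blimp-1 (1.02 ± 0.35), and Cxcr6 (0.36 ± 0.14) did not pass the test. The calls of Havcr2 (1.49 ± 0.38, encoding TIM-3) and Nfil3 (0.90 ± 0.26) were lost without 2 of the 4 mice, the Tubb3-/- mice for Havcr2 (adjusted p = 0.081 to 0.091) and WT replicate 1 or Tubb3-/- replicate 2 for Nfil3 (adjusted p = 0.092 to 0.20).

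Genes of resting and central T cells went the other way, with 11 of 12 tested called lower and none higher (median -2.35). Tcf7, encoding the transcription factor TCF-1, was at 19.8, 92.7, 10.5 and 40.7 CPM in Tregs and 236, 275, 370 and 459 in conventional cells (-3.53 ± 0.38, adjusted p = 9.36e-05). Satb1, a chromatin organizer that Tregs repress, was at 107, 388, 73.7 and 217 against 1320.1, 1568, 916 and 1420.01 CPM (-3.00 ± 0.24), and Lef1 at 85.9 to 174 against 545 to 1091 (-2.87 ± 0.17). Ccr7, the receptor for entry into lymph nodes, was at 44.6, 226, 59.4 and 112 against 295, 468, 209 and 251 CPM (-1.66 ± 0.24), with WT replicate 2 the highest of the Treg values for Ccr7, Tcf7, Satb1 and Bach2. Il7r, which many Tregs of lymphoid organs lack, was at 672 to 1057 CPM in Tregs and 884 to 1035 in conventional cells, and was not called (-0.17 ± 0.12, adjusted p = 0.43).

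Helper T cell factors and cytokines were rare in Tregs. Of 17 genes listed, 10 had enough counts to be tested, and 8 of these were lower in Tregs and none higher (median -2.32, the same with genes at 0 set to their bound). Il5 had 0 UMIs in the 310 Tregs and 129 in 7 conventional cells, at least 37.7-fold lower when 3 counts over all Tregs stand for the 0. Il22 had 0 in Tregs and 46 in 6 conventional cells, at least 13.4-fold lower. Ifng was found in 5 Tregs (14 UMIs) and 23 conventional cells (86 UMIs; -2.55 ± 0.57, adjusted p = 0.011), and Il2, which Tregs consume but hardly make, in 4 Tregs and 33 conventional cells (-3.64 ± 0.65).

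Il17a was not called (-1.36 ± 0.82, adjusted p = 0.33) and was found in 4 Tregs, 1 per mouse, where a single cell of Tubb3-/- replicate 1 held 150 of the 167 UMIs. Bcl6, of follicular T cells, was at 48.8 to 81.0 CPM against 60.6 to 102 and was not called (-0.14 ± 0.20). The call of Tnf (-1.98 ± 0.44) was lost without Tubb3-/- replicate 2 (-1.30, adjusted p = 0.13), and that of Il23r (-1.44 ± 0.43) without WT replicate 1, WT replicate 2 or Tubb3-/- replicate 2 (adjusted p = 0.053 to 0.28).

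Chemokine receptors and integrins were mixed, with 4 of 14 tested called higher and 3 lower (median 0.06). Ccr2, which follows CCL2 into inflamed tissue, was at 218, 156, 279 and 198 CPM in Tregs against 114, 47.7, 59.7 and 75.8 (1.53 ± 0.21, adjusted p = 0.00047). Ccr6 (1.43 ± 0.26) and Cxcr4 (0.79 ± 0.14) were higher as well. Gpr183, an oxysterol receptor (-1.10 ± 0.20), the integrin gene Itgb1 (-0.85 ± 0.13) and Cxcr3, the receptor of CXCL9 and CXCL10 (-0.91 ± 0.28, adjusted p = 0.049), were lower. The call of Cxcr3 was lost without either Tubb3-/- mouse (-0.77 to -0.63, adjusted p = 0.20 to 0.27) and under 6 further settings, among them DESeq2 (adjusted p = 0.36), thinned cells (0.32) and mixed cells left out (-0.84, edgeR adjusted p = 0.053).

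In the remaining lists fewer members were called. Among 17 genes of T cell receptor signalling and the early response, 5 were higher and 3 lower (median 0.10). Nr4a1, a sensor of recent receptor signals, was at 434 to 642 against 236 to 275 CPM (1.05 ± 0.14), Nfkbia, an NF-κB target, differed by 1.35 ± 0.11 and Dusp1 by 1.28 ± 0.13, while Jun was lower (-1.14 ± 0.19) and Cd69 was not called (0.14 ± 0.17). The lower calls of Cd247 and Lat were lost without at least 2 of the 4 mice (adjusted p = 0.094 to 0.12 and 0.11 to 0.16). Of 12 interleukin-2 and STAT5 genes, 4 were higher and 2 lower (median 0.41). Cish, a STAT5 target, differed by 1.47 ± 0.20 and Stat3 by 0.92 ± 0.12, whereas the smaller differences of Il2rg (0.46), Stat5a (0.89), Jak1 (-0.48) and Stat5b (-0.49) each lost their call without 3 of the 4 mice (adjusted p = 0.053 to 0.15).

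Interferon response genes gave 3 of 12 higher and none lower (median 0.04), namely Gbp7 (1.53 ± 0.20), Gbp3 (1.74 ± 0.32) and Ifi27l2a (0.42 ± 0.12). Gbp3 and Gbp7 belong to a family of similar genes, between which reads may be split, and Ifi27l2a lost its call without WT replicate 1, WT replicate 2 or Tubb3-/- replicate 2 (adjusted p = 0.055 to 0.14). Of 16 cell cycle genes, 5 were higher and none lower (median 0.63), with Tyms at 27.1 to 63.7 against 4.48 to 16.9 CPM (2.10 ± 0.35) and Rrm2 at 22.0 to 56.2 against 1.84 to 7.46 (2.49 ± 0.46). Rrm2 lost its call without WT replicate 1 (2.12, adjusted p = 0.053). The proliferation gene Mki67 was at 95.8, 145, 148 and 34.9 CPM against 15.5, 55.1, 41.8 and 53.6 (1.35 ± 0.38, adjusted p = 0.036), so that Tubb3-/- replicate 2 went the other way. Its call was lost without WT replicate 1 or Tubb3-/- replicate 1 (adjusted p = 0.14 to 0.16), that of Stmn1 without WT replicate 1, WT replicate 2 or Tubb3-/- replicate 1 (0.079 to 0.15) and that of Birc5 without WT replicate 1 or either Tubb3-/- mouse (0.051 to 0.21). Of the 310 Tregs, 55 had an Mki67 UMI.

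Beyond the lists, the largest rise among called genes of at least 10 CPM was that of Cxcl3, a chemokine for neutrophils, at 39.7, 203, 15.3 and 50.4 CPM in Tregs against 1.41 to 5.55 (4.40 ± 0.45). Its 101 UMIs lay in 28 Tregs, and 29 of the 35 UMIs of WT replicate 2 were in 1 cell. Ccr3, the eotaxin receptor (4.04 ± 0.66), Nrn1 (3.44 ± 0.56), Ky (3.41 ± 0.50) and Frmd5 (3.35 ± 0.38) were higher in all 4 mice. Hopx, which encodes a homeodomain cofactor known to maintain peripherally induced Tregs, was at 1185, 643, 1216 and 987 CPM against 96.0, 79.0, 143 and 77.7 (3.35 ± 0.15, adjusted p = 1.02e-06). The histone gene Hist1h1b (3.41 ± 0.39), made in dividing cells, was found in 28 Tregs, and 1 cell held 99 of the 220 UMIs of WT replicate 1.

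At the other end stood Dapl1 (-5.06 ± 0.62), Fasl, the death ligand of cytotoxic cells (-4.49 ± 0.67), Pde3b (-4.02 ± 0.24), Rflnb (-3.84 ± 0.46), St8sia1 (-3.69 ± 0.40), Tdrp (-3.67 ± 0.65) and Pdlim4 (-3.50 ± 0.77). Pde3b, a phosphodiesterase gene repressed by Foxp3, was at 31.4, 40.5, 9.58 and 31.0 CPM in Tregs and 378, 439, 345 and 440 in conventional cells. Pdlim4 lost its call without Tubb3-/- replicate 2 (-2.85, adjusted p = 0.060). Leaving out 1 mouse at a time gave 818 to 1166 called genes in place of 1157, and none of the 100 genes followed through the settings (the called list members and the named genes) changed sign.

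**Figure D3:**
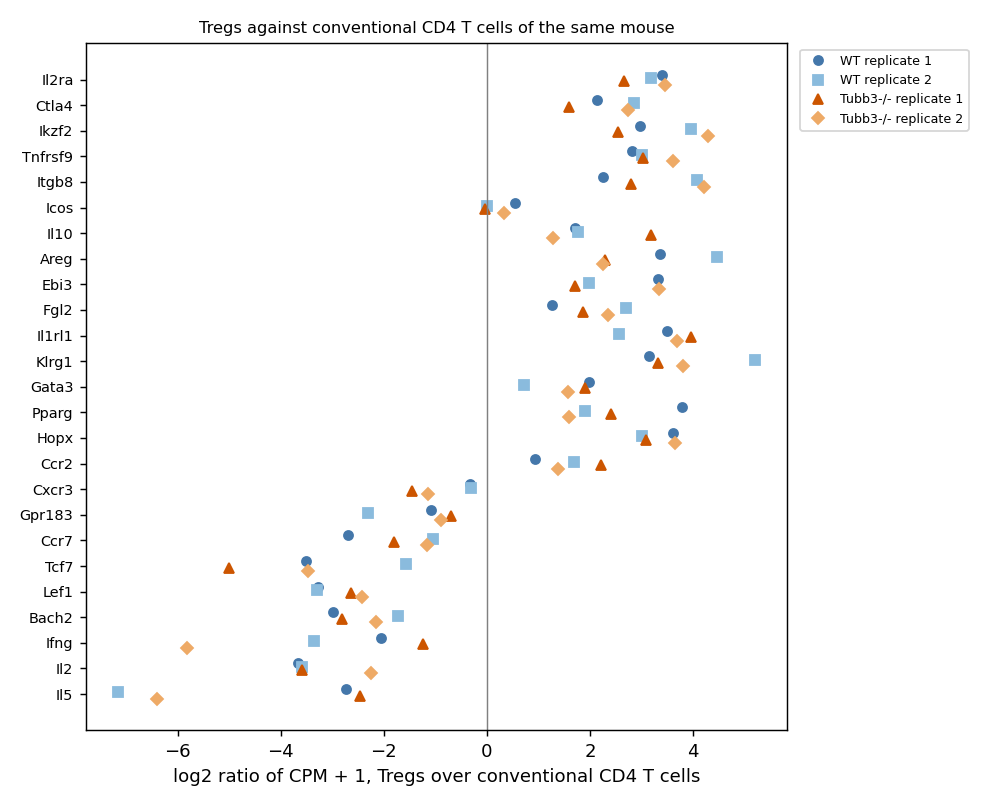
Log2 ratio of CPM + 1 in Tregs over conventional CD4 T cells of the same mouse (x axis) for 25 genes, with 1 point per mouse and a line at 0. Identity, suppressive and tissue genes such as Il2ra, Areg and Klrg1 lie to the right in all 4 mice, Icos lies around 0, and Tcf7, Lef1, Bach2 and Il5 lie to the left. For Il5, at 0 in Tregs, the ratio depends on the added 1.

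Within the Tregs, cells with the ST2 transcript were compared with those without it. Il1rl1 was found in 244 of 310 Tregs (78.7%, 95% exact binomial interval 73.7 to 83.1), namely in 53 of 78, 13 of 20, 126 of 141 and 52 of 71 cells. The split is a threshold on a range and not a cell type, as 20 Tregs had exactly 1 Il1rl1 UMI, 24 had 2 and the highest value was 34. Cells without Il1rl1 were shallower in all 4 mice, with medians of 5594, 4975, 5747 and 5271 UMIs against 6171, 5986, 6247 and 6117. Of 3356 genes tested with edgeR, again with the mouse as a term, 1.16% were higher in Il1rl1-detected Tregs (39 genes) and 0.507% lower (17 genes).

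Genes of tissue Tregs were higher beside Il1rl1, in 6 of 17 tested and with none lower (median log2 difference 0.99, all genes 0.01). Klrg1 was at 412, 363, 511 and 360 CPM in detected and 143, 53.6, 25.3 and 51.9 in undetected Tregs (2.61 ± 0.39, edgeR adjusted p = 0.0077). Gata3 was at 506 to 745 against 178 to 312 CPM (1.56 ± 0.25, adjusted p = 0.011), and Pparg at 103 to 296 against 22.3 to 71.4 (2.31 ± 0.32, adjusted p = 0.0064). All 3 genes were higher in detected cells of every mouse, with no overlap between the classes. Ccr8 (1.98 ± 0.38), Itgae, encoding the epithelium-binding integrin CD103 (2.06 ± 0.44), and Rora (1.24 ± 0.27) were the other 3.

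Of the 15 identity genes, 4 were higher and none lower. Il2ra was at 657, 477, 741 and 653 against 181, 107, 76.0 and 44.5 CPM (2.72 ± 0.35, adjusted p = 0.0035), and the receptor genes Tnfrsf4, encoding OX40 (1.45 ± 0.23), Tnfrsf18, encoding GITR (1.48 ± 0.29), and Tnfrsf9 (1.19 ± 0.25) differed less. Ctla4 (0.17 ± 0.17, adjusted p = 0.81) and Ikzf2 (0.37 ± 0.22, adjusted p = 0.61) were not called, and undetected Tregs still had 1125 to 2199 CPM of Ctla4. Areg was at 503, 955, 911 and 726 CPM in detected and 368, 536, 59.1 and 200 in undetected Tregs, higher in all 4 mice but not called (1.59 ± 0.43, adjusted p = 0.11). Gzmb was the called suppressive mediator of 10 tested (3.60 ± 0.71, adjusted p = 0.037), at 193, 0, 115 and 13.7 against 24.9, 0, 0 and 0 CPM. Most of its UMIs in WT replicate 1 lay in a single cell, as given above, and WT replicate 2 had none in either class.

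Genes of resting T cells were lower beside Il1rl1, in 4 of 11 tested and with none higher (median -1.56). Ccr7 stood at 16.3, 57.3, 35.8 and 21.8 CPM in detected and 125, 589, 253 and 371 in undetected Tregs (-3.26 ± 0.31, adjusted p = 0.00057). Tcf7 was at 4.47 to 9.55 against 56.1 to 268 CPM (-3.89 ± 0.62, adjusted p = 0.0099), and Bach2, a repressor that keeps T cells quiescent, at 30.0 to 76.4 against 299 to 821 (-3.12 ± 0.36). Satb1 was the fourth (-2.77 ± 0.51), while Klf2 (-2.29 ± 0.54, adjusted p = 0.064) and Lef1 (-1.05 ± 0.35) were not called. Undetected Tregs of WT replicate 2 had the highest values of Ccr7, Tcf7, Bach2 and Satb1 among the mice, over 7 cells.

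Other called genes with large differences were Dgat2, an enzyme of triglyceride synthesis (3.42 ± 0.58), Cysltr2, a leukotriene receptor (2.46 ± 0.48), Pcyt1a, of phosphatidylcholine synthesis (2.15 ± 0.46), Hopx (2.14 ± 0.20) and Frmd5 (2.11 ± 0.45). Ctla2b (2.19 ± 0.33) has a close copy, Ctla2a, so that its counts are uncertain. Lower were Parp8 (-3.05 ± 0.63), Aff3 (-2.52 ± 0.30), Tagln (-2.49 ± 0.42), Ssbp2 (-2.33 ± 0.33), Igf1r (-2.28 ± 0.34) and Ms4a4b (-2.26 ± 0.32). Tagln was uneven among undetected Tregs, at 449, 71.4, 101 and 74.2 CPM, and whether RNA of other cells added to it was not tested. In the list of T cell receptor and early response genes, Nfkbia (0.99 ± 0.17) was the 1 of 17 called, and the helper, trafficking, interleukin-2, interferon and cell cycle lists had none called of 2, 11, 10, 4 and 10 tested.

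In a second reading the classes were kept as split at full depth, each Treg was thinned to 2000 UMIs for the other genes, and 2 shallower cells were left out. Il2ra was then found in 59.8% of 244 detected and 15.6% of 64 undetected Tregs, Klrg1 in 50.8% and 14.1%, Gata3 in 66.4% and 35.9%, and Areg in 48.4% and 17.2%. Ccr7 was found in 2.5% and 21.9%, whereas Ctla4 was near equal at 89.8% and 84.4%. The edgeR comparison on thinned cells called 67 of 954 genes.

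The count of calls rested on single mice, above all on Tubb3-/- replicate 1, which gave 126 of the 244 detected cells. Without that mouse 1 gene was called, Ccr7 (-3.49, edgeR adjusted p = 0.048), without Tubb3-/- replicate 2 16 genes, and without WT replicate 1 96 genes. Of the 29 named genes called, all but Ccr7 lost their call without at least 1 mouse, though none changed sign. Without Tubb3-/- replicate 1, Il2ra still differed by 2.51 (adjusted p = 0.073), Tcf7 by -4.00 (0.058) and Hopx by 2.08 (0.056). With the mixed cells left out 103 genes were called, and with Cd4 required in Tregs 9.

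**Figure D4:**
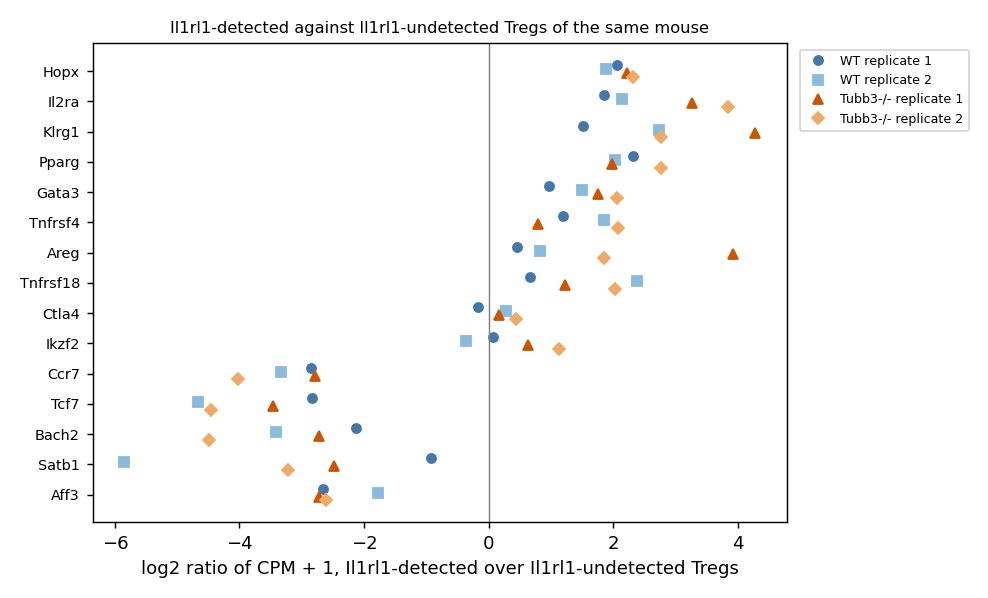
Log2 ratio of CPM + 1 in Il1rl1-detected over Il1rl1-undetected Tregs of the same mouse (x axis) for 15 genes, with 1 point per mouse and a line at 0. Il2ra, Klrg1 and Pparg lie to the right and Ccr7, Tcf7 and Bach2 to the left in all 4 mice, while Ctla4 and Ikzf2 scatter around 0.

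Between the genotypes, the Treg transcriptome showed 1 called gene of 6575 tested (0.0152%, edgeR, either direction), and 266 genes had an unadjusted p under 0.05. The called gene was Hdc, which encodes histidine decarboxylase, the enzyme that makes histamine, at 110 and 90.1 CPM in WT and 6.92 and 8.02 in Tubb3-/- mice (-3.77 ± 0.39, adjusted p = 0.041). Its counts lay in single barcodes. A single cell held 63 of the 64 Hdc UMIs of WT replicate 1, and the barcode of WT replicate 2 with 6881 Sftpc UMIs held 14 of its 15, against 7 and 4 UMIs spread over 7 and 4 cells in the Tubb3-/- mice. The barcode of WT replicate 2 is among the 6 mixed cells, and the cell of WT replicate 1 is not. With the 6 mixed cells left out, the Hdc counts of WT replicate 1 thus remained, but the gene no longer passed the filter on low counts. No gene was then called by edgeR, with 263 at an unadjusted p under 0.05. Without WT replicate 1, 73 genes were called, where WT replicate 2 with its 2 large mixed barcodes was the lone WT mouse, and without any 1 of the other mice no gene was, with 134 to 293 at an unadjusted p under 0.05.

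Il1rl1 was the list member with the smallest p, at 672 and 577 CPM in WT and 1117 and 893 in Tubb3-/- Tregs (0.68 ± 0.18, unadjusted p = 0.0048, edgeR adjusted p = 1.00). The Tubb3-/- values lay above the WT values, but the gene did not pass the test over all genes. Others with the smallest p in this direction were Camk2b (1.06 ± 0.28), Zfp36l2 (0.65 ± 0.18) and Zfp36l1 (0.55 ± 0.16), which encode proteins that destabilize mRNA, and the death receptor gene Fas (1.40 ± 0.40). In the opposite direction they were Ear2 (-2.74 ± 0.41), an eosinophil-associated ribonuclease gene with close copies, Pde4d (-1.31 ± 0.21), Zeb2 (-1.35 ± 0.23) and Crispld2 (-2.87 ± 0.54), with edgeR adjusted p of 0.36 to 1.00.

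None of the genes in the 10 T cell lists was called between genotypes. Tested members numbered 15 identity, 12 suppressive, 18 tissue, 11 resting, 2 helper, 13 trafficking, 12 interleukin-2, 17 early response, 10 interferon and 15 cell cycle genes, with list medians between -0.33 (resting genes) and 0.29 (helper genes) and -0.00 over all genes. Areg was at 473 and 781 CPM in WT and 812 and 588 in Tubb3-/- Tregs (0.19 ± 0.26), Il10 at 73.9 and 48.1 against 64.2 and 48.1 (-0.19 ± 0.33), and Ctla4 at 2042 and 1238 against 2296 and 1625 (0.25 ± 0.24). The genotypes overlapped for all 3. Pparg was at 175 and 210 against 93.9 and 122 CPM (-0.83 ± 0.25, edgeR adjusted p = 1.00). The 20 Tregs of WT replicate 2 limit the precision, and a p that misses the threshold does not show that the genotypes were alike.

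The genotypes were also compared by the share of Tregs with a UMI of 15 state genes, at 2000 UMIs per cell. For 5 of the 15 both Tubb3-/- mice lay on one side of both WT mice. The background for mice compared in this way was 32.5% of 5172 genes found in at least 5% of Tregs. The state genes lay close to that share, so their count does not set them apart from other genes. Il1rl1 was found in 55.3% and 60.0% of WT and 75.2% and 62.0% of Tubb3-/- Tregs. Klrg1 (46.1% and 45.0% against 42.6% and 40.8%), Il10 (14.5% and 10.0% against 8.5% and 5.6%) and Cxcr3 (9.2% and 5.0% against 3.5% and 2.8%) were lower at this depth. WT replicate 2 had 20 Tregs here, so a single cell moves its shares by more than some of these gaps. With 2 mice against 2, no exact two-sided permutation p could fall under 0.33, and all adjusted p were 1.00.

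Unthinned, the share with Klrg1 turned around, at 60.3% and 60.0% in WT and 66.0% and 62.0% in Tubb3-/- Tregs, so its direction depended on the thinning. The share with Il1rl1 did not, at 67.9% and 65.0% against 89.4% and 73.2%, while Il10 and Cxcr3 overlapped when unthinned. In whole-cell libraries alone, Il1rl1 overlapped, at 56.2% and 63.2% against 75.2% and 62.0%, and so it did with mixed cells left out, at 54.7% and 66.7% against 75.0% and 63.8%. Without the mixed cells, 6 of 15 genes separated against 33.2% of all genes, with 18 Tregs left in WT replicate 2. Tnfrsf4 (82.7% and 88.9% against 80.7% and 76.8%) and Mki67 (12% and 11.1% against 10.0% and 5.8%) were among the 6, both lower. Ctla4, Ikzf2 and Tnfrsf4 were found in 75.0% to 93.6% of thinned Tregs of every mouse, and Ccr7 was highest in WT replicate 2, at 20.0% against 3.9% to 8.5% in the others.

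**Figure D5:**
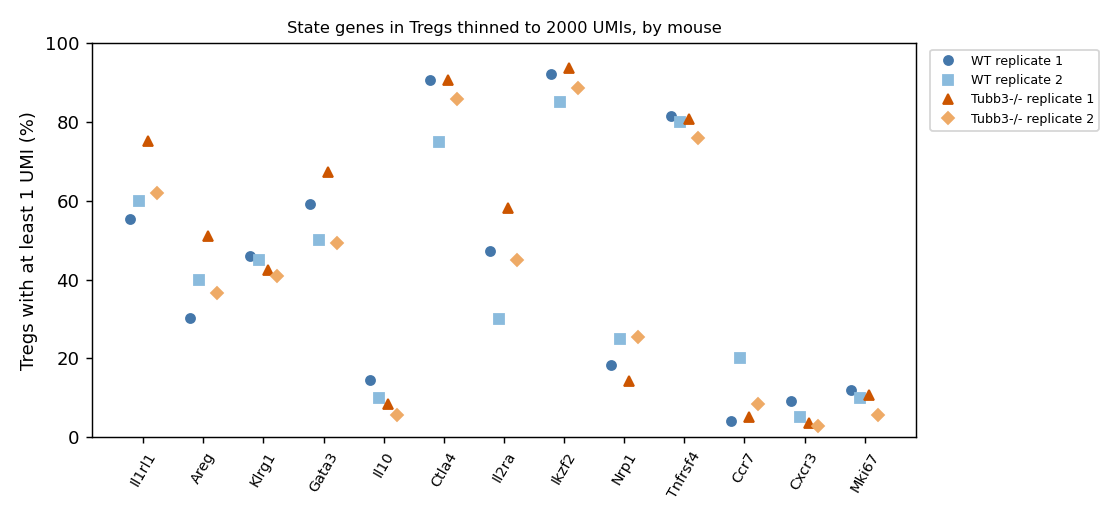
Share of Tregs (y axis, %) with at least 1 UMI of 13 of the state genes after each cell was thinned to 2000 UMIs, with 1 point per mouse (76, 20, 141 and 71 cells). Ctla4, Ikzf2 and Tnfrsf4 are found in most Tregs of every mouse, Il1rl1 reaches 75.2% in Tubb3-/- replicate 1 and 55.3% to 62.0% in the others, and the genotypes overlap for Areg, Gata3, Il2ra and Ccr7.

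Whether a genotype difference was larger in Tregs than in conventional CD4 T cells was tested as an interaction in edgeR. Of 7623 genes, 2 were called (0.0262%), both lower, with 327 at an unadjusted p under 0.05. These were Cd9, a tetraspanin gene, and Wfdc21, which encodes a small secreted protein, and their values are given among the results for a closer look. No gene of the T cell lists was called. With mixed cells left out neither was called, and 3 other genes were, all in the opposite direction. These were the antigen presentation genes Cd74 (2.86, edgeR adjusted p = 0.0042) and H2-Ab1 (2.90, 0.027) and the cystatin gene Cst3 (2.60, 0.012), of which Cd74 and H2-Ab1 were chosen after their values were seen. With all cells, Cst3 was at 423, 492, 326 and 397 CPM in Tregs and 2297, 896, 360 and 279 in conventional cells, where the genotypes differed more. Without mixed cells, 5 dendritic cell genes summed to 98.7, 18.9, 11.3 and 11.3 CPM in conventional cells. Their part in these calls was not tested.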

How the data were processed

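Single-cell libraries (10x Chromium 3' v3.1, mice tagged with CellPlex oligonucleotides) of 4 mice were read from 8 matrices of UMI counts per gene and cell, 1 per mouse and pool. The authors deposited these counts after alignment and counting with Cell Ranger 7.1.0 on mm10, per the submitters' processing notes. Rows of tag oligonucleotides were set aside, and no column of values was left unmapped (0). Whether counting used strand is not given in the sources used here. Foxp3, Il2, Nrn1, Pcyt1a, Tagln, Irf8, Crispld2, Ctla2b and Tubb3 overlap other protein-coding genes. Many more named genes, among them Ctla4, Il2ra, Ikzf2, Tcf7 and Hopx, overlap annotated genes of other types. Counts of Ctla2b, Ear2, Hist1h1b and the Gbp genes may be shared with similar copies. Positions are from GENCODE vM21.

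Cells with 200 to 7500 genes and at most 15% mitochondrial UMIs were kept. The members and gene lists were chosen with earlier results of these data known. T cells, conventional CD4 T cells and Tregs were gated on UMIs as described in the report. No barcode was shared between libraries of a pool (0), 59 were found in both pools, and 1 of these was a Treg. Doublets were not removed in the main comparisons, beyond those that the excluding genes keep out.

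UMIs were summed per mouse and class and tested with edgeR 4.0.16 (quasi-likelihood, trimmed mean of M-values, filterByExpr) in R 4.3.3, with Benjamini-Hochberg adjustment and a threshold of 0.05; each fit has its own scaling, so CPM values differ slightly between comparisons. The designs were genotype for Tregs, mouse and class for class comparisons, and the interaction of genotype and class with the mouse as a term. Errors beside log2 differences are standard errors. Shares were compared by exact two-sided permutation tests over mice (Python 3.11.15, numpy 2.4.6, scipy 1.17.1, pandas 2.3.3, scanpy 1.11.5), and shares of single samples carry exact Clopper-Pearson 95% intervals; these and the limit of 3 counts for a count of 0 cover counting error only. Named genes were the 10 with the largest rise and fall among those called, given a mean CPM of 10 or more and every mouse on the same side. In a comparison with fewer than 5 called genes, they were the 5 with the smallest p in each direction under the same conditions. Every listed gene could be named beside these. Some named, listed and state genes that enter the counts are not reported here. Scripts were tested on simulated data. Alternatives were DESeq2 1.42.0, other size factors, no filter on low counts, other gates, thinned cells, doublet scores, a replicate block and leaving out each mouse.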

Additional observations from a re-analysis of the deposited data

Results flagged for a closer look

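Both genes called in the comparison of the genotype difference in Tregs with that in conventional CD4 T cells are given here, because the test of the difference itself passed the threshold. Cd9 differed by -3.01 ± 0.33 (log2, edgeR adjusted p = 0.032). It stood at 225, 996, 52.7 and 139.6 CPM in Tregs and at 98.8, 490.3, 277 and 385 CPM in conventional CD4 T cells of WT replicates 1 and 2 and Tubb3-/- replicates 1 and 2. In Tregs the WT values lay above the Tubb3-/- values, and in conventional cells the genotypes overlapped. A single cell held 160 of the 172 Treg Cd9 UMIs of WT replicate 2, and another 78 of the 136 of WT replicate 1, and both are among the 6 Tregs with at least 1% of UMIs in markers of other cell types. With these and the 14 conventional cells of that kind left out, Cd9 differed by -0.62 and was not called (edgeR adjusted p = 1.00).

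Wfdc21 differed by -4.92 ± 0.56 (edgeR adjusted p = 0.032). It stood at 19.8, 289.6, 7.66 and 5.82 CPM in Tregs and at 4.24, 97.3, 47.7 and 105 CPM in conventional cells. All 50 Treg UMIs of WT replicate 2 lay in 1 cell, and without the mixed cells the gene had too few counts to be tested. With Cd4 required in Tregs, Cd9 differed by -1.61 and Wfdc21 by -2.43, and neither was called. The part of the mixed barcodes in these differences was not tested beyond these values. Each genotype had 2 mice, so no group was large enough to look for a sample that stands apart from the others.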

How the results depend on the processing

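The doublet, mixed-cell and excluding-gene settings, the block with mixed cells left out, and leaving out mice for the state genes were chosen after seeing the data. Removing doublets at Scrublet's own threshold was not run, since it marked 2 of 14160 whole-cell library cells (0.0141%) and no Treg (0); the top 5% of scores were removed instead. Both differences in Treg share kept their direction under every setting run, from 0.51 to 2.11 percentage points of all cells and from 7.41 to 20.1 of T cells, the extremes being without WT replicate 2 and without WT replicate 1. Between genotypes, 1 called gene became 2 with DESeq2, 119 with no filter on low counts, 0 with mixed cells left out, and 0 to 73 without 1 mouse. Same-numbered mice gave a correlation of deviations of 0.109, and 0.0223 with mixed cells left out, over 2 pairs, too few to show a pairing, though same-numbered mice were also alike in sex-linked transcripts; with the replicate block 15 genes were called, and 0 with the block and mixed cells left out. Tregs against conventional CD4 T cells gave 756 calls with DESeq2 in place of 1157, and 818 to 1166 without 1 mouse. Il1rl1-detected against undetected Tregs gave 212 calls with no filter in place of 56, 85 with the top doublet scores removed, 9 with Cd4 required, 103 with mixed cells left out, and 1 to 96 without 1 mouse. The interaction gave 87 calls with no filter in place of 2, 0 with the top doublet scores removed, 0 with Cd4 required, 3 with mixed cells left out (all higher, where both had been lower), and 2 to 105 without 1 mouse; among its uncalled genes named by rule, Cst3 (-0.17) and H2-Eb1 (-0.021) turned direction with the top doublet scores removed and Plet1 (1.17) with mixed cells left out. Of 15 state genes, 2 did not overlap between genotypes without thinning in place of 5 (34.3% of all genes), 3 in whole-cell libraries alone (32.4%), and 9 to 11 without 1 mouse (57.5% to 79.5%). The causes were not tested. A fit that leaves an arm with 1 mouse assumes that this mouse varies like the other group. WT replicate 2 is limited by its 20 Tregs.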
